A study of Mus musculus with 8 samples.

Results

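The miR-34 and miR-449 family comprises the microRNAs miR-34a, miR-34b, miR-34c and miR-449a, b and c, short RNAs that pair through their seed, bases 2 to 8, with messenger RNAs and lower their output. The 9 mature names taken as its members were chosen by name and not by level, and all 9 were among the 1915 mature names measured: mmu-miR-34a-5p, mmu-miR-34a-3p, mmu-miR-34b-5p, mmu-miR-34b-3p, mmu-miR-34c-5p, mmu-miR-34c-3p, mmu-miR-449a-5p, mmu-miR-449b and mmu-miR-449c-5p, written here without the mouse prefix. Fkbp5 knockout mice (n = 4 libraries, replicates 1, 2, 4 and 5) were compared with wild-type mice (n = 4, replicates 1, 2, 3 and 4), all on a C57BL/6 background, 12 weeks old, with no treatment given in the labels. The tissue was prefrontal cortex and the assay small RNA sequencing. The protein FKBP51, product of Fkbp5, works with the chaperone Hsp90 and dampens glucocorticoid receptor signalling. How the allele was made, the sex of the mice and whether a library is 1 animal are not given in the sources used here.

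As background, miR-34a and miR-34b/c are direct transcriptional targets of the tumour suppressor p53 and restrain the cell cycle, while in brain miR-34c has been tied to the stress response through the receptor for corticotropin-releasing hormone. In multiciliated cells, among them ependyma and choroid plexus, miR-34b/c and miR-449 are the abundant members and are needed for the building of cilia. Messenger RNA lies outside small RNA libraries, and the genotype labels were therefore not checked against Fkbp5 itself.

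Sequences are shown first because the members divide by their seeds, given in capitals, and by the arm of the hairpin from which they come. RefSeq (GRCm38.p6) held 7 of the 9 members. It had no mature entry for miR-34c-5p or miR-449b, so their absence below says nothing about their seeds. The 4 members that follow are those of its 1738 mature mouse sequences with the seed of miR-34a-5p.
miR-34a-5p: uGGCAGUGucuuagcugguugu
miR-34b-5p: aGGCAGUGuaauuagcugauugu
miR-449a-5p: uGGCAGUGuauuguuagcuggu
miR-449c-5p: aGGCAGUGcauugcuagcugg
The opposite, 3p, arms carry other seeds, which miR-34b and miR-34c share with each other and miR-34a does not.
miR-34b-3p: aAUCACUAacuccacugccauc
miR-34c-3p: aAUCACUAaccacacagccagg
miR-34a-3p: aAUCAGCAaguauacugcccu
Counted base by base from the 5′ end with no gaps allowed, miR-34a-5p was identical to miR-449a-5p at 15 of 22 bases, the first 9 without a break. By the same count miR-34a-5p was identical to miR-34b-5p at 11 of 22. miR-34b-5p has 23 bases, and stretches that it shares with miR-34a-5p after the seed fall out of step in this count. miR-34b-3p and miR-34c-3p were identical at 17 of 22 bases.

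The family lies at 3 loci (GRCm38, the assembly that mm10 names). The miR-34a hairpin is at chr4:150068454-150068555 on the plus strand, and its 3′ end overlaps the annotated transcript Gm37795. The miR-34b and miR-34c hairpins are at chr9:51103562-51103645 and chr9:51103034-51103110 on the minus strand, with 451 bases between them, and both lie in an intron of 1 annotated transcript of Btg4, which is read from the opposite strand. The miR-449a, b and c hairpins are at chr13:113037534-113037624, chr13:113037419-113037498 and chr13:113035983-113036091, in an intron and on the strand of Cdc20b. The 2 hairpins that follow show, in capitals, the 5p and then the 3p product, since miR-34a and miR-34b differed in which of these had the higher value.
mir-34a hairpin: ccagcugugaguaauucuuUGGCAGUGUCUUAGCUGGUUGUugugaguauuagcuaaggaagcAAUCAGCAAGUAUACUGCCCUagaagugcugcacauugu
mir-34b hairpin: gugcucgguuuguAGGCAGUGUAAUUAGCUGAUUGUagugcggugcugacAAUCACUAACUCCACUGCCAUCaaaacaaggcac

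Library totals of the deposited values ran from 17728879 to 19776148 in the knockout and from 16180699 to 21555993 in wild type. The headers call the values normalized counts, yet they are whole numbers with a different total in each library, as raw counts would be. Which of these they are could not be settled, so the totals may or may not be the sequencing depth, and the depth is taken as unknown. Values below are rescaled between libraries, unless called deposited. Of the labelled tissue, the markers checked were those of neurons, and the region of the brain was not checked. miR-128-3p, miR-9-5p, miR-124-3p and miR-132-3p, all abundant in neurons, summed to between 6514241 and 8304483 in knockout and between 6303480 and 8150629 in wild-type libraries. The heart miRNA miR-208a-3p was at 0 in all 8. Of the other miRNAs listed for other organs, miR-208b-3p of heart was near 0 and 3 were well above 0. Muscle-enriched miR-1a-3p was at 13988 ± 1033 in the knockout and 15337 ± 2646 in wild type, and miR-133a-3p, also of muscle, at 586 ± 15.5 and 678 ± 80.5, knockout first. Liver-enriched miR-122-5p was at 404 ± 61.1 in the knockout and 384 ± 31.2 in wild type (SD, n = 4 each).

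miR-34a-5p, the product of miR-34a that represses cell-cycle and survival genes in p53 responses, was the most abundant member. It was at 1078, 1449.5, 1181 and 1265 in knockout replicates 1, 2, 4 and 5, against 1343, 1039.9, 1156 and 931 in wild-type replicates 1, 2, 3 and 4. The groups overlapped, with knockout replicate 2 the highest library and wild-type replicate 4 the lowest. In the order of all 1915 names it stood between place 178 and place 217, far from the top: miR-128-3p, the most abundant miRNA of the neuronal markers, was between 2887 and 5475 times as high in the same libraries. Its passenger strand, miR-34a-3p, had deposited values of 0, 1, 0 and 2 in the knockout libraries and 1, 2, 0 and 0 in the wild-type libraries, in the same replicate order.

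The miR-34b/c cluster came next, led by the 3p arm of miR-34b. miR-34b-3p was at 384, 347, 444 and 362 in the knockout libraries and at 373, 405, 290.0 and 338 in the wild-type libraries. Every library of either genotype lay within the narrow band between the lowest, wild-type replicate 3, and the highest, knockout replicate 4, which was 1.53-fold above it. miR-34c-5p, the member that has been tied to the receptor for corticotropin-releasing hormone, was at 203, 167, 224 and 219 in the knockout libraries. It was at 237, 302, 138 and 128 in the wild-type libraries, so that the knockout values fell inside the wild-type range. miR-34c-3p was lower, at 52.8, 60.4, 72.1 and 94.3 in the knockout libraries and 75.2, 54.4, 45.3 and 69.5 in the wild-type libraries, again overlapping. miR-34b-5p, which carries the same seed as miR-34a-5p, was near 0, with deposited values of 3, 3, 8 and 4 in the knockout libraries and 2, 11, 2 and 4 in the wild-type libraries.

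miR-449, the branch of the family found in multiciliated cells, was near 0 in this tissue. miR-449a-5p had deposited values of 1, 4, 6 and 8 in the knockout libraries and 4, 8, 3 and 4 in the wild-type libraries. miR-449c-5p had a single value of 1, in wild-type replicate 1, and was listed at 0 in the other libraries. miR-449b was listed at 0 in all 8 libraries.

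**Figure D1:**
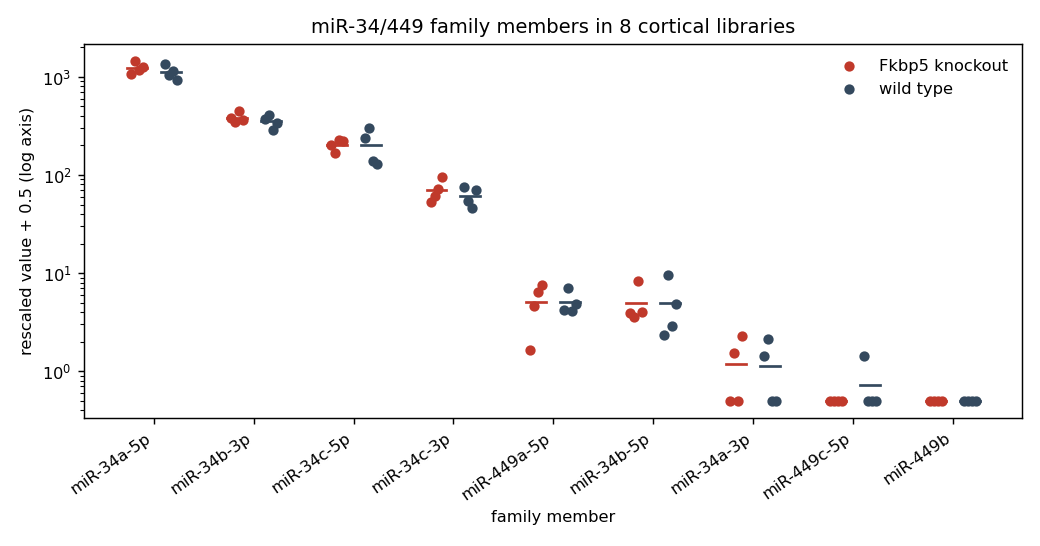
Rescaled value of each of the 9 family members in every library, with 0.5 added and on a log axis; points are libraries (knockout left, wild type right) and bars are group means. miR-34a-5p lies between 931 and 1449.5, miR-34b-3p, miR-34c-5p and miR-34c-3p follow in that order, and the other 5 members are below 10.

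The order of the levels was the same in both genotypes down to miR-34c-3p. Within each of the 8 libraries miR-34a-5p exceeded miR-34b-3p, by 3.20-fold on average (mean log2 ratio 1.68 ± 0.28, SD). miR-34b-3p exceeded miR-34c-5p by 1.87-fold (log2 0.90 ± 0.30), in 8 of 8 libraries although their ranges over all libraries touched. miR-34c-5p exceeded miR-34c-3p by 3.04-fold (log2 1.60 ± 0.47) and miR-34c-3p exceeded miR-449a-5p by 13.9-fold (log2 3.80 ± 0.60), each in 8 of 8. By a two-sided exact sign-flip permutation test over the 8 libraries, each of these 4 steps had p = 0.00781, the smallest that 256 arrangements can give, and an adjusted p of 0.00938 over 6 neighbouring pairs. The step from miR-34b-5p to miR-34a-3p gave the same p values, but both were near 0. The pairs were neighbours in the order of mean level over these same 8 libraries, so the p values are no independent test of that order. miR-449a-5p and miR-34b-5p could not be ordered: miR-449a-5p was the higher in 4 of 8 libraries (log2 ratio 0.07 ± 0.74, exact p = 0.750). How readily an RNA is ligated and copied differs between sequences, so these are orders of sequenced values and not of molecules per cell.

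Of the summed family, miR-34a-5p made up 64.9 ± 4.54% in the knockout and 64.2 ± 5.64% in wild type, the miR-34b/c products 34.8 ± 4.56% and 35.4 ± 5.54%, and miR-449 0.233 ± 0.129% and 0.276 ± 0.0669% (knockout first; SD, n = 4 each). Among the 5p products alone, miR-34a-5p held between 76.6% and 89.3% of the value in a library, and miR-34c-5p between 10.3% and 22.2%. These products bear the seed of miR-34a-5p where their sequence was held, and that of miR-34c-5p was not. The whole family came to 103 ± 12.5 ppm of the library total in the knockout and 92.1 ± 12.0 ppm in wild type.

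The 3 miR-34 hairpins were read from different arms. The arms are different sequences, ligated and copied unequally, so these are shares of sequenced values and not of molecules. miR-34a was read almost wholly as its 5p arm: the deposited values over all libraries summed to 9538 for miR-34a-5p and 6 for miR-34a-3p. miR-34b was the opposite, with 37 for the 5p and 2987 for the 3p arm, so that of its 2 products the one with the family seed was the rare one. miR-34c gave both, with 1674 for the 5p and 535 for the 3p arm. The 5p share of miR-34c was 79.4%, 73.4%, 75.7% and 69.9% in the knockout libraries and 75.9%, 84.7%, 75.3% and 64.8% in the wild-type libraries, a wider spread in wild type. The share of miR-34a did not fall under 99.8% in any library and that of miR-34b did not pass 2.19%, so the 3 hairpins did not overlap. Among 293 hairpins whose arms together averaged at least 20, 152 were mostly 5p, and 120 had a 5p share between 5% and 95%, miR-34c with them. A lower 5p share than that of miR-34b was found for 60 of the 293, and a higher share than that of miR-34a for 23.

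**Figure D2:**
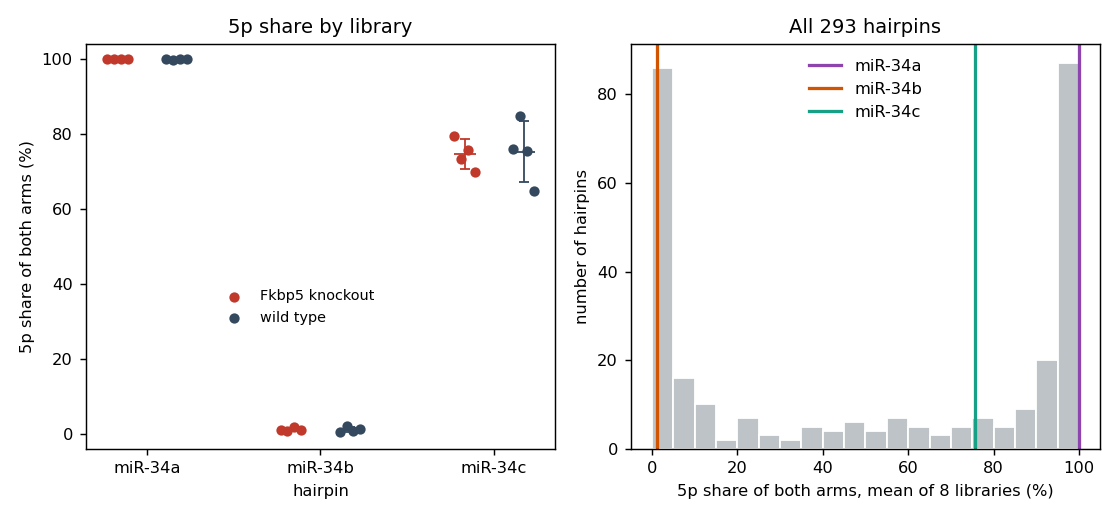
Left, the 5p share of the summed arms (percent) of miR-34a, miR-34b and miR-34c in each library, with group means and SD (n = 4 each; knockout left, wild type right). Right, the number of hairpins at each 5p share among all 293, with lines at miR-34a (99.9%), miR-34b (1.19%) and miR-34c (75.5%).

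Whether loss of Fkbp5 moves these members was asked with limma across all 599 miRNAs that passed a filter on low values, on log2(rescaled value + 1), a scale that understates changes of low miRNAs. Of the 9 members 4 passed the filter: miR-34a-5p, miR-34b-3p, miR-34c-5p and miR-34c-3p. None of the 4 was called at an adjusted p of 0.05, nor was any other miRNA (0% of 599), and at an unadjusted p of 0.05 limma called 0 of the 4 members against 4.17% of all miRNAs. The knockout libraries lay wholly above the wild-type libraries for 0 of the 4 members and for 0.668% of all miRNAs, and the genotypes did not overlap in either direction for 0 of the 4 and 2% of all. The mean log2 value of each of the 4 was higher in the knockout, where 53.6% of all miRNAs were, with a median log2 fold change of 0.15 for the 4 and 0.01 for all 599.

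miR-34a-5p averaged 1243 ± 157 in the knockout and 1118 ± 176 in wild type (SD, n = 4 each). Its log2 fold change was 0.16 ± 0.14 (SE), with a limma adjusted p of 0.999 and a 95% interval of 0.897-fold to 1.39-fold. miR-34b-3p averaged 384 ± 42.9 in the knockout and 351 ± 49.3 in wild type, a log2 fold change of 0.13 ± 0.14 with an interval of 0.881-fold to 1.37-fold. These 2 members were the steadiest of the 4 tested, and also the most abundant. Their coefficient of variation over the 8 libraries was 14.3% for miR-34a-5p and 12.6% for miR-34b-3p. The median over all tested miRNAs, of any level, was 18.1%, and miRNAs of like level were not compared. The products of miR-34c varied more. miR-34c-5p averaged 203 ± 26.0 in the knockout and 201 ± 83.0 in wild type, with a log2 fold change of 0.10 ± 0.26 (0.725-fold to 1.58-fold) and a coefficient of variation of 28.2%. That value was -0.043 when wild-type replicate 3 was left out and -0.094 when wild-type replicate 4 was. miR-34c-3p averaged 69.9 ± 18.1 in the knockout and 61.1 ± 13.7 in wild type, with a log2 fold change of 0.18 ± 0.23 (0.802-fold to 1.61-fold). All 4 had a limma adjusted p of 0.999, and none of the 4 intervals reached 2-fold in either direction. In bulk tissue, fewer cells of a type and less of a miRNA per cell cannot be told apart. For the members under the filter, a fit without the filter gave log2 fold changes of 0.12 ± 0.50 (SE) for miR-34b-5p, -0.13 ± 0.49 for miR-449a-5p and 0.03 ± 0.45 for miR-34a-3p, each smaller than its standard error. No fold change is given for miR-449c-5p, listed at 0 in every knockout library, or for miR-449b.

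**Figure D3:**
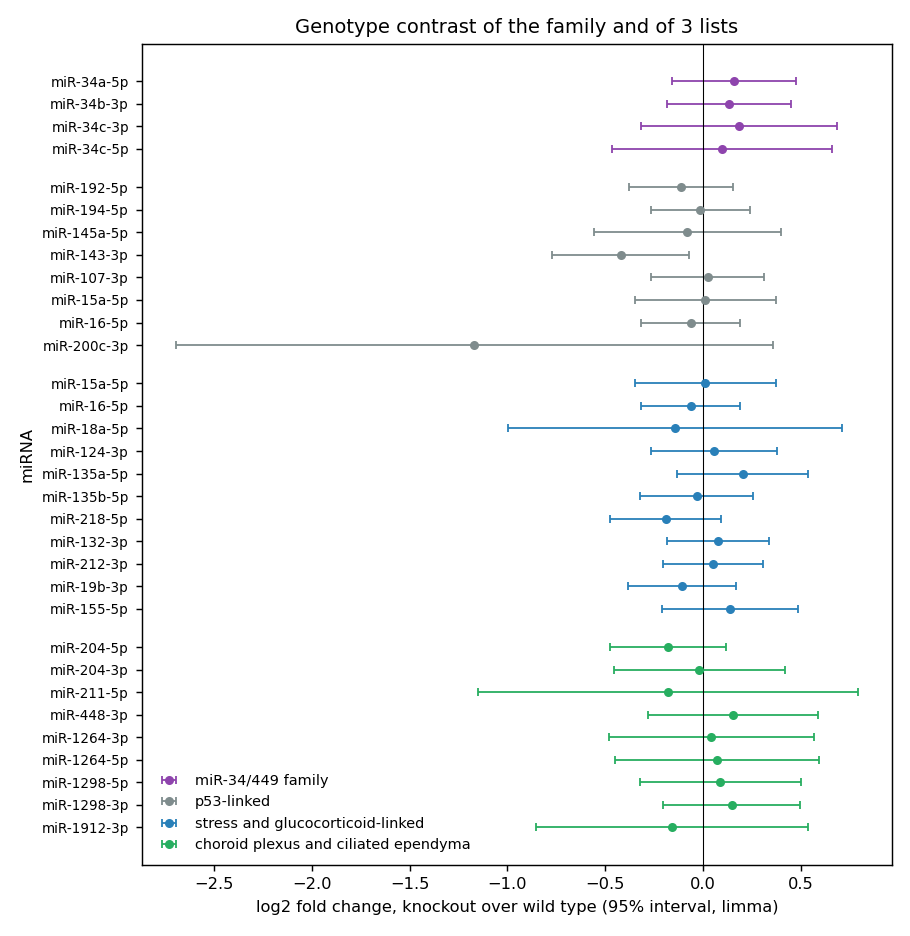
Log2 fold change, knockout over wild type, with its 95% interval by limma, for the 4 family members tested and for the tested miRNAs of 3 lists. The 4 members lie between 0.10 and 0.18 with intervals that include 0; miR-143-3p is the one miRNA shown whose interval leaves out 0, and it did not pass correction.

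The comparison of miR-34a with the miR-34b/c cluster was made within libraries, where scaling between libraries drops out. miR-34a-5p was 5.29-, 8.67-, 5.26- and 5.75-fold above miR-34c-5p in the knockout libraries and 5.66-, 3.44-, 8.33- and 7.25-fold above it in the wild-type libraries. The lowest ratio was that of wild-type replicate 2, where miR-34c-5p was highest. The mean log2 ratio was 2.61 ± 0.34 in the knockout and 2.55 ± 0.56 in wild type, a difference of 0.06 with a 95% interval from -0.74 to 0.86 (two-sided exact permutation p = 0.857, 70 arrangements, smallest possible 0.0286). Against miR-34b-3p, miR-34a-5p had a mean log2 ratio of 1.69 ± 0.30 in the knockout and 1.67 ± 0.30 in wild type, a difference of 0.03 with an interval from -0.50 to 0.55. Between the products of the cluster, miR-34c-5p over miR-34b-3p was at -0.92 ± 0.14 in the knockout and -0.88 ± 0.43 in wild type, a difference of -0.03 with an interval from -0.59 to 0.52 (exact p = 0.943). Adjusted over the 3 ratios each p was 0.943, and the sign of each difference turned when wild-type replicate 2 or knockout replicate 2 was left out, with differences between -0.20 and 0.12. The sign for miR-34a-5p over miR-34b-3p also turned when knockout replicate 5 (-0.012) or wild-type replicate 4 (-0.042) was left out, and that for miR-34c-5p over miR-34b-3p when wild-type replicate 1 (0.042) was.

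**Figure D4:**
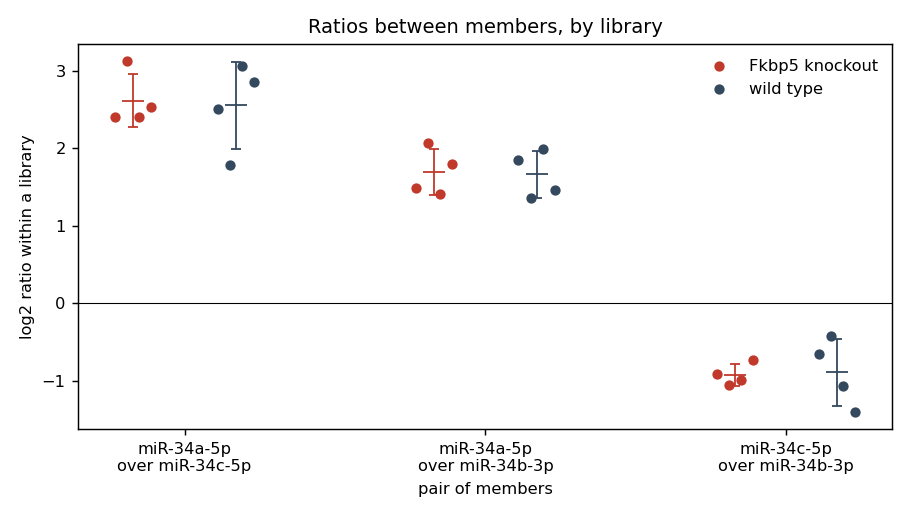
Log2 ratio between 2 members within a library for the 3 pairs compared, with group means and SD (n = 4 each; knockout left, wild type right). The groups overlap for every pair, and the knockout and wild-type means differ by 0.06, 0.03 and -0.03.

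The arm ratio of miR-34c was the one of the 3 hairpins with both arms high enough to be fitted, in a limma fit over 141 hairpins. Its log2 ratio of 5p to 3p was 1.56 ± 0.30 in the knockout and 1.65 ± 0.65 in wild type (SD, n = 4 each). The change was -0.09 ± 0.29 (SE) with a limma adjusted p of 0.975 and an interval from -0.71 to 0.54, and 0% of the 141 hairpins were called (2.13% at an unadjusted p of 0.05). Leaving out wild-type replicate 2 gave 0.18, and leaving out knockout replicate 5 gave 0.027.

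How the members varied together from library to library was compared over the 6 pairs of tested members. miR-34b-3p and miR-34c-5p, from neighbouring hairpins, had the highest correlation of log2 values over the 8 libraries: Pearson r = 0.77 (exact permutation p = 0.0241, adjusted p = 0.144 over 6 pairs) and Spearman rho = 0.81 (exact permutation p = 0.0218, adjusted p = 0.131). It did not pass correction. Without knockout replicate 4 and wild-type replicate 3, those farthest from the median of miR-34b-3p, r was 0.91, and with the genotype means taken out it was 0.79. miR-34a-5p had an r of -0.02 with miR-34b-3p and 0.17 with miR-34c-5p, with an exact permutation p of 0.971 (adjusted 0.971) for miR-34b-3p and 0.687 (adjusted 0.824) for miR-34c-5p. Without knockout replicate 2 and wild-type replicate 4, those farthest from the median of miR-34a-5p, its r was -0.14 with miR-34b-3p and -0.12 with miR-34c-5p. The arms of miR-34c, miR-34c-5p and miR-34c-3p, had an r of 0.23 (exact permutation p = 0.589, adjusted 0.824) and a rho of 0.33 (exact permutation p = 0.428, adjusted 0.798). Without wild-type replicates 3 and 4 that r was -0.04. miR-34c-3p had an r of 0.26 with miR-34a-5p and 0.35 with miR-34b-3p (exact permutation p = 0.535 and 0.395, adjusted 0.824 each). Without knockout replicate 2 and wild-type replicate 4 the former was 0.71. Without knockout replicate 4 and wild-type replicate 3 the latter was -0.42, so these values depended on the libraries kept.

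The library total moved with miR-34c-5p. After the data had been seen, the 4 tested members were each set against the deposited total of their library: the r of miR-34c-5p was 0.89 (exact permutation p = 0.00144, adjusted p = 0.00575 over the 4) and rho was 0.93 (exact permutation p = 0.00223, adjusted p = 0.00893), although values had been rescaled. Without wild-type replicates 1 and 2, the largest totals, r was 0.83. miR-34b-3p had an r of 0.62 (exact permutation p = 0.0907, adjusted 0.181), miR-34c-3p 0.44 (exact permutation p = 0.280, adjusted 0.374) and miR-34a-5p 0.23 (exact permutation p = 0.582, adjusted 0.582), none past correction. Without the same wild-type replicates 1 and 2, r was 0.71 for miR-34b-3p, 0.86 for miR-34c-3p and 0.41 for miR-34a-5p. With every library kept, miR-34c-5p was the only member past correction, and the values without those libraries carry no test. Whether the members differ in their tie to the total was not tested. Over all 599 miRNAs the median r with the total was 0.09. Of them 5 were at least as high as miR-34c-5p and 68 at least as high as miR-34b-3p, each counted with itself. The part of the library total in the joint variation of miR-34b-3p and miR-34c-5p was not tested.

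**Figure D5:**
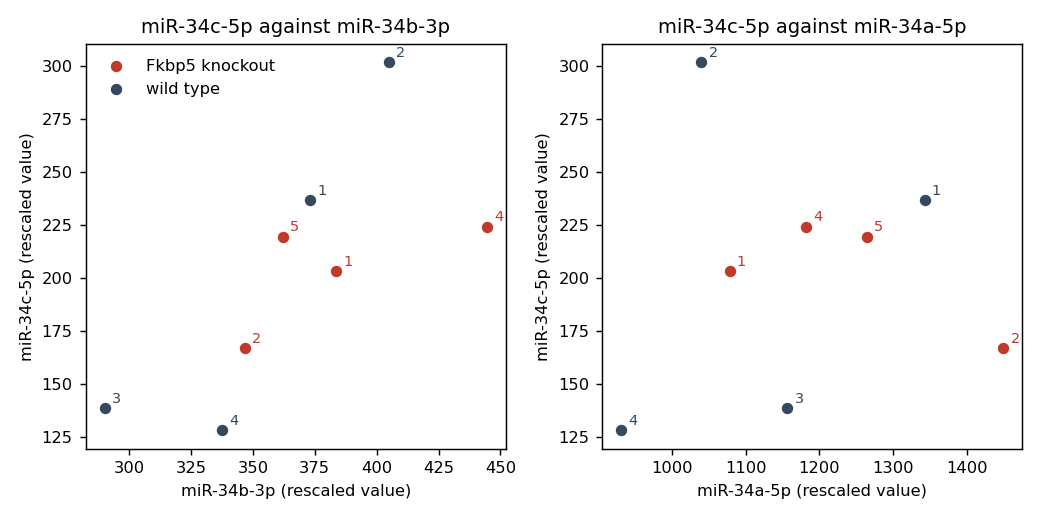
Rescaled values of miR-34c-5p against miR-34b-3p (left) and against miR-34a-5p (right), 1 point per library, numbered by replicate and coloured by genotype. miR-34c-5p is highest in wild-type replicate 2 (302) and lowest in wild-type replicate 4 (128); the left panel has r = 0.77 and the right panel r = 0.17.

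Of the 3 miRNAs most like each member over the 8 libraries, by Pearson r of log2 values with genotype means taken out, none was a family member. For miR-34a-5p they were miR-1966-3p (r = 0.91), miR-100-5p (0.89) and miR-493-5p (0.87). For miR-34c-5p they were miR-669a-5p and miR-669p-5p (both 0.97, with identical values) and miR-19b-3p (0.93), a member of the miR-17-92 group. For miR-34b-3p they were miR-6948-3p (0.87) and miR-465a-3p and miR-465b-3p (both 0.83, with identical values), and miR-34c-5p stood in place 9. For miR-34c-3p they were miR-369-3p, miR-3084-3p and miR-466f-3p (each 0.93). These are descriptions over 8 points from 599 candidates and carry no test.

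Since miR-34b/c and miR-449 are abundant in ciliated cells, the miRNAs of choroid plexus and ciliated ependyma were measured beside them. Of 11 listed, 9 were tested, of which 5 were higher and 4 lower in the knockout by mean log2 value and 0 passed (median log2 fold change 0.04). Their summed value ran from 8318 to 9275 in knockout and from 8695 to 12710 in wild-type libraries, most of it miR-204-5p, which astrocytes express too. miR-211-5p was at 126 in knockout replicate 5 and 186 in wild-type replicate 3, and between 40.2 and 64.0 in the other 6. miR-448-3p, miR-1264, miR-1298 and miR-1912, whose genes lie within the serotonin receptor gene Htr2c, summed to 885, 1164, 1224 and 1192 in the knockout libraries and to 1143, 1183, 764 and 1069 in the wild-type libraries. Wild-type replicate 3 was the lowest for that sum (764) and for miR-34b-3p (290). Knockout replicate 4 was the highest for both (1224 and 444). Not every library between them followed this order. Knockout replicate 1, with the next lowest sum of 885, had miR-34b-3p at 384. miR-34c-5p was lowest, at 128, in wild-type replicate 4, with a sum of 1069. The miR-449 members were at or near 0 in all libraries. The part of such tissue in the values of miR-34b/c was not tested.

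miRNAs linked to p53 by transcription or by processing were listed as the pathway neighbours of miR-34. Of 10 listed, 8 were tested, with 2 higher and 6 lower in the knockout and 0 past correction (median log2 fold change -0.07, against 0.01 for all 599). Of all 599, 53.6% were higher. miR-192-5p and miR-194-5p, which p53 induces in human cells, were at -0.11 ± 0.12 and -0.01 ± 0.12, and miR-107-3p, made from a Pank gene, was at 0.02 ± 0.13. miR-143-3p, at 46394 ± 11567 in the knockout and 61237 ± 8546 in wild type, was at -0.42 ± 0.16 (limma adjusted p = 0.911). It was the 1 of the 8 with an unadjusted limma p under 0.05, as 4.17% of all 599 had. miR-145a-5p, cut from the same primary transcript as miR-143-3p, was at -0.08 ± 0.22.

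Of 12 miRNAs linked to stress and glucocorticoid signalling, 11 were tested, with 6 higher and 5 lower in the knockout and 0 past correction (median log2 fold change 0.01). miR-511-5p, which has been described to target Fkbp5, was below the filter at 5.16 ± 3.76 in the knockout and 7.24 ± 1.91 in wild type. miR-18a-5p, which targets the glucocorticoid receptor, was at -0.14 ± 0.39, and miR-155-5p, induced in inflammation and repressed by glucocorticoids, was at 0.14 ± 0.16. miR-15a-5p, which has also been linked to Fkbp5, was at 0.01 ± 0.16. The 4 tested epithelial miRNAs of the miR-200 family were all lower in the knockout by mean log2 value, where 53.6% of all 599 were higher. None passed correction (median -1.18), and their list sum ran from 295 to 2121 in the knockout and from 527 to 3706 in wild type. Each of the 4 was highest in wild-type replicates 2 and 3 and knockout replicate 5, so they varied together. miR-200c-3p was at 397, 459 and 450 in those libraries, and at 112 and 125 in wild-type replicates 1 and 4.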

How the data were processed

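Per the labels' protocols, short RNA was enriched on columns, ligated into NEXTflex libraries, selected on a gel and read as paired 100-base reads. Per the submitters' processing notes, cutadapt 1.11, Bowtie 1.1.2, HTSeq 0.6.1p1 and edgeR were used on mm10, with no order or settings given. The deposited values, whole numbers, are per the file headers normalized counts made by the authors, by a method not given in the sources used here, and were handled as a score of no fixed unit with no count model, although their differing library totals look like those of raw counts.

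Libraries were rescaled by an unweighted trimmed mean of log ratios (30% of ratios and 5% of levels trimmed at each end, factors 0.838 to 1.21). The filter kept miRNAs with at least 10, scaled to the median library, in 4 libraries and at least 15 in all. log2(value + 1) was fitted with limma 3.58.1 in R 4.3.3, letting the prior variance follow the mean level, and p-values were adjusted by Benjamini-Hochberg. Arm ratios (0.5 added, both arms averaging at least 20) were fitted likewise. Ratios, levels and correlations used exact permutation tests in scipy 1.17.1. Procedures were tested on simulated data. No label ties each library to its own animal, and the p-values then reflect only how these libraries vary, which may be technical.

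The members and lists were chosen with earlier results of these data known. Named miRNAs are all members, the 3 most like each tested member, and the listed miRNAs. In RefSeq, 1623 of the 1915 names had a sequence. Other scalings, pseudocounts, filters, a replicate block and leaving out 1 library at a time served as alternatives. Numbers 1, 2 and 4 are shared between genotypes, and the labels do not say that they pair libraries.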

Additional observations from a re-analysis of the deposited data

Results flagged for a closer look

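Of 26 groups of 4 libraries examined (7 members, 3 ratios and 3 arm shares in each genotype), 2 had an outlying library, and about 1.3 would arise by chance. Both come from the same library and the same low values. miR-34b-5p was at 7.80 rescaled in knockout replicate 4 and between 3.07 and 3.52 in the other knockout libraries. The 5p share of miR-34b was 1.72% in knockout replicate 4 and between 0.877% and 0.964% in the others.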

How the results depend on the processing

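Of 204 alternative values, 182 kept their direction and their side of the threshold, but for part of them that side was fixed in advance. The exact tests of the genotype differences in ratio had too few arrangements to reach 0.05 with 1 library left out or under the replicate block. No alternative called a member: the log2 fold changes of miR-34a-5p and miR-34b-3p kept their sign in all 18, between 0.07 and 0.26 and between 0.05 and 0.20. The 5 steps in the order of levels that passed went the same way in 8 of 8 libraries. Leaving out 1 library or changing the pseudocount could therefore alter neither their direction nor their side of the threshold. Their 10 alternatives each, which all passed, add no support. Under the other scalings the median log2 fold change over all miRNAs was 0.0052, 0.067 and 0.028. The labels do not say that replicate numbers pair libraries, and same-numbered libraries had correlations of 0.07, -0.04 and 0.13. A replicate block on numbers 1, 2 and 4 called 4 miRNAs and 2 arm ratios, none of them of this family, and gave -0.082 for miR-34c-5p, -0.093 for miR-34c-3p and 0.012 for the miR-34c arm ratio. The same 6 libraries without the block gave the same -0.082 for miR-34c-5p and -0.093 for miR-34c-3p, so these signs turned with the choice of libraries. With 1 library left out, miR-34c-5p ran from -0.094 to 0.32, miR-34c-3p from 0.02 to 0.31, the miR-34c arm ratio from -0.34 to 0.18, and the ratio of miR-449a-5p to miR-34b-5p from -0.054 to 0.26. The genotype differences in ratio ran from -0.20 to 0.23 for miR-34a-5p to miR-34c-5p, from -0.10 to 0.13 for miR-34a-5p to miR-34b-3p and from -0.20 to 0.12 for miR-34c-5p to miR-34b-3p. Apart from the block, the counts of miRNAs and of arm ratios past the threshold were 0 in every alternative. At an unadjusted p of 0.05 limma called 9 to 51 miRNAs, from unlike numbers tested. The 51 were among 1330 tested without the filter, against 25 of 599 in the main fit. miR-34c-3p gave no value under the strictest filter, and the members near 0 were too low to compare.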
